A study of Rattus norvegicus with 23 samples.

Results

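Cholesterol export and lipid droplet genes were followed in microglia of newborn rats after inflammation and hypoxia-ischemia (HI). The 10 genes were given as a list, namely Apoe, Abca1, Abcg1, Plin2, Soat1, Nr1h3, Mylip, Pltp, Fabp4 and Hilpda, and all 10 were present among the 20301 genes of the deposited log2 table. The data comprised 23 RNA-sequencing libraries of CD11b/c-selected cells from Wistar rats of both sexes. The rats were operated on at postnatal day 7, and the cells were taken 24 h after the operation. The 6 Sham samples had a sham operation with no injection listed. The 5 LPS samples had 0.1 mg/kg of lipopolysaccharide, a bacterial cell wall component, 4 h before the sham operation. The 6 NaCl/HI samples had saline, ligation of the left common carotid artery and 50 min of 8% oxygen. The 6 LPS/HI samples had the same dose of LPS 4 h before that ligation and hypoxia. Each Sham or LPS sample was the whole brain of 1 pup, while each NaCl/HI or LPS/HI sample pooled the ipsilateral hemispheres of 2 pups. The effect of HI therefore cannot be told apart from the tissue taken or the pooling, nor the effect of LPS in the LPS and Sham groups from the injection itself. A difference between the LPS effects with and without HI carries the same limits. CD11b/c is also carried by monocytes, macrophages and neutrophils, so the selection can include these cells.

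Microglia take up myelin and cell debris, and the cholesterol from that material must be stored or exported because it cannot be broken down. Free cholesterol is esterified in the endoplasmic reticulum by the acyltransferase encoded by Soat1 and kept in droplets coated by perilipin 2 (Plin2). Export runs through the transporters Abca1 and Abcg1 onto lipoprotein particles built around apolipoprotein E, and is switched on by liver X receptors such as Nr1h3, which sense oxysterols. Hilpda, a known target of hypoxia-inducible factors, blocks the droplet lipase ATGL, and Fabp4 carries fatty acids in macrophages and fat cells.

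Promoter windows, running from 250 bases before to 50 bases after the start site, are shown for 4 genes, because hypoxia was part of the treatment and the hypoxia-responsive core, ACGTG or GCGTG on either strand, was the searched motif that occurred in these windows. The sequences come from RefSeq (rat, GRCr8, another build than the mRatBN7.2 used for the values), each read 5′ to 3′ along the gene, with the core in capitals. Abca1, Plin2 and Soat1 lie on the minus strand (chr5:72596424-72596723, chr5:106228969-106229268 and chr13:71147623-71147922) and Hilpda on the plus strand (chr4:58836213-58836512).
Abca1: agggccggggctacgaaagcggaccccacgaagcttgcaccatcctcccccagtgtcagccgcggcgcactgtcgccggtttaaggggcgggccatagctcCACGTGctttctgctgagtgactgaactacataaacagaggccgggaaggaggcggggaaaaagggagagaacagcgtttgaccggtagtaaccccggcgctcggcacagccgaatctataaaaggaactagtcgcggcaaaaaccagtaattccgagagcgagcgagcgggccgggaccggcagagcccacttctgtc
Plin2: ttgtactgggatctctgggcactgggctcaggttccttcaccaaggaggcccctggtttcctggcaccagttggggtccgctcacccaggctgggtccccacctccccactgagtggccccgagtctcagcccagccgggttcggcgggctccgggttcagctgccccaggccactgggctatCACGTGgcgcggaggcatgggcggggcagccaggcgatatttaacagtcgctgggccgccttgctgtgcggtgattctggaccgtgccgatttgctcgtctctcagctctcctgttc
Soat1: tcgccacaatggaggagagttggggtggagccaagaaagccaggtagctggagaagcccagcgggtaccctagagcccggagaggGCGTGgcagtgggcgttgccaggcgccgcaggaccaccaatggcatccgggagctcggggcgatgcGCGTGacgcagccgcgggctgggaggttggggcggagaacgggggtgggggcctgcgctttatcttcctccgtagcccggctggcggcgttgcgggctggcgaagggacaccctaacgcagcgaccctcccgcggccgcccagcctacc
Hilpda: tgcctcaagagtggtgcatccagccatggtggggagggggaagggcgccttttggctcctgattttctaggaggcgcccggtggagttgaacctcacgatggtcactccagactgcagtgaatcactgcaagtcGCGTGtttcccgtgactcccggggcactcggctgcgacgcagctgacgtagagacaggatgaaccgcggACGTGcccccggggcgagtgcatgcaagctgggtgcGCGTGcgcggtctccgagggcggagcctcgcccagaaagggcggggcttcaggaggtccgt
In Abca1 and in Plin2 the capitals mark 1 palindrome, CACGTG, which holds the core on both strands. Hilpda held 3 cores, beginning at -116, -47 and -11 from the start site, and Soat1 held 2, at -165 and -99. RefSeq had 11 such windows for 8 of the genes, with none used for Abcg1 and Fabp4. The core was in 7 of the 11 windows, among them windows of Apoe, Mylip and Pltp that are not shown, and in 41.7% of all 33365 rat promoter windows. The nuclear receptor half-site AGGTCA, on either strand, was in 0 of the 11 windows and in 16.2% of all windows. A pair of these half-sites in the same direction was also in 0 of the 11, at a spacing of 4 bases (0.00599% of all windows) or of 1 base (0.0539%). Only exact copies were searched, and 2 and 18 of all 33365 windows held such a pair. The 0 of 11 therefore says nothing of whether these promoters hold inexact sites for nuclear receptors. These counts describe letters in short windows and not sites in use.

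The deposited values are log2 values after the regularised log transformation (rlog) with 3 unwanted variables removed by the authors, and differences below are on that scale, where weakly expressed genes are drawn towards their mean. A gene was called when the Benjamini-Hochberg adjusted p of the limma test over all 20301 genes was under 0.05. Counts were not in the table, so the depth of each library is unknown. The median value of a library lay between 7.75 and 7.82. LPS/HI replicate 2 stood apart, since only 7.83% of its own deviation was left after the removal of the 3 variables, against 69.2% to 99.3% in the other libraries, and most LPS/HI differences of the 10 genes are therefore also given without it. The mean of 11 microglial markers was 13.1 to 13.5 in every library. The labels name no litters or dissection days, and the p-values measure the spread between these samples.

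**Figure D1:**
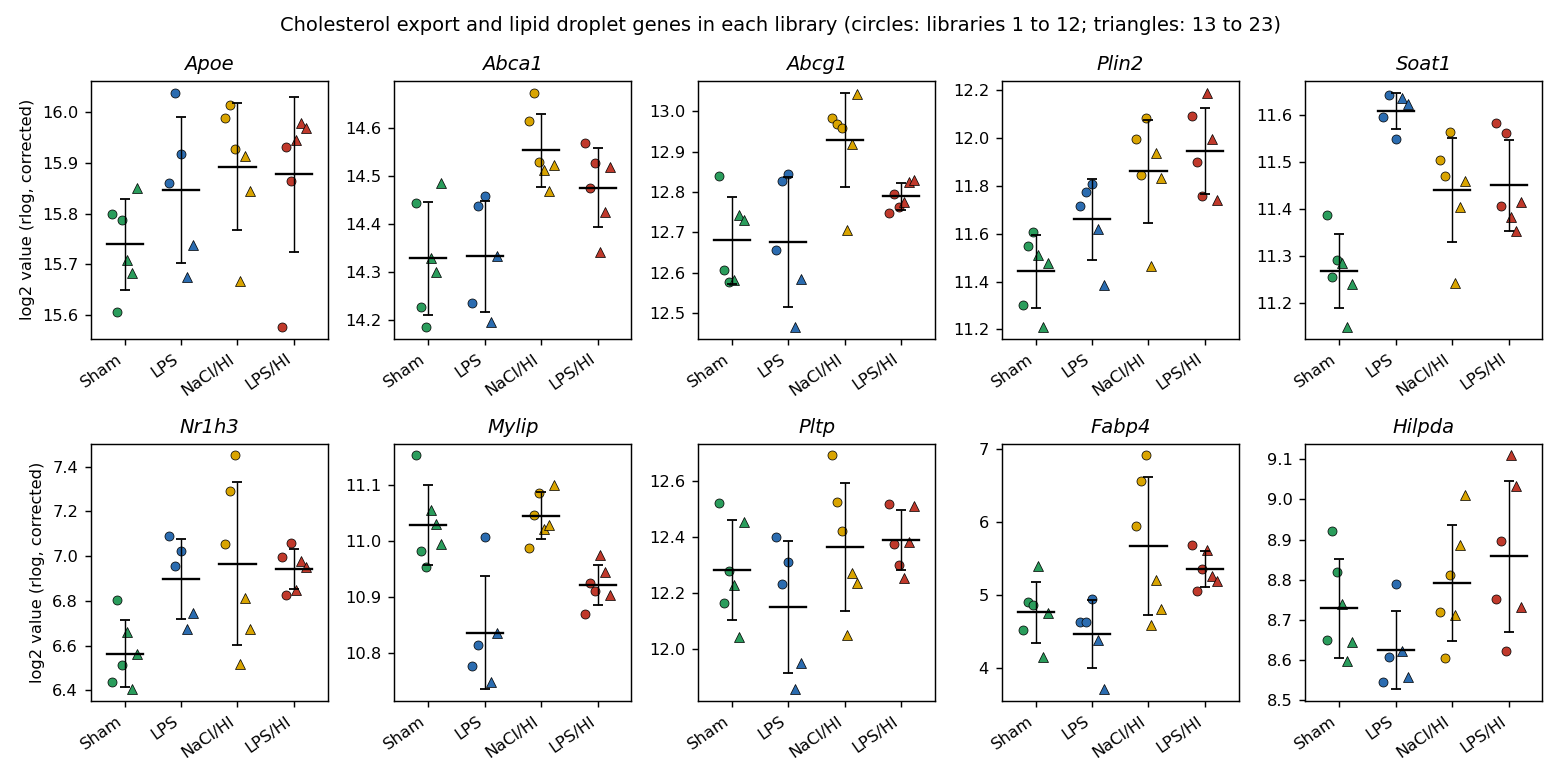
Log2 value (rlog, corrected by the authors) of each of the 10 genes in each library of the Sham, LPS, NaCl/HI and LPS/HI groups, with the scale set for each gene. Circles are libraries 1 to 12, triangles libraries 13 to 23, lines the group means and bars ± 1 SD; the group mean of Soat1 is highest in LPS, and Fabp4 and Nr1h3 are widely spread in NaCl/HI.

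Across the 4 groups, the mean was highest in NaCl/HI for 6 of the 10 genes, in LPS/HI for 3 (Plin2, Pltp and Hilpda) and in LPS for 1 (Soat1), and it was lowest in Sham or LPS for all 10. Over all genes, 17.2% had their highest mean in NaCl/HI. The range between the lowest and highest group mean had a median of 0.25 log2 units over the 10 genes and 0.14 over all genes. It ran from 0.15 for Apoe to 1.21 for Fabp4. When the 4 group means of each gene were put in order, 0 of the 30 neighbouring pairs passed the limma test, 6 had an unadjusted p under 0.05, and 1 passed the exact Wilcoxon test, so the order itself is not resolved between neighbours.

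Soat1, which makes cholesteryl esters for storage, had the lowest adjusted p of the 10 genes in LPS against Sham. Its lowest, median and highest values in Sham were 11.15, 11.27 and 11.39. The 5 LPS samples were at 11.60, 11.64, 11.55, 11.64 and 11.62. All 5 LPS samples lay above the highest Sham sample, and 13.9% of all genes had groups that did not overlap in this comparison. Soat1 rose by 0.34 log2 units (SE 0.0559, adjusted p = 2.24e-04), a 1.27-fold change, where 17.8% of all genes were called, 10.2% as higher and 7.56% as lower. The rise was 0.28 within libraries 1 to 12 and 0.41 within libraries 13 to 23, and the call held under every alternative tried other than added fold thresholds.

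After HI, Soat1 lay between Sham and LPS. The values in NaCl/HI were 11.24, 11.47 and 11.56 (lowest, median and highest). Those in LPS/HI were 11.35, 11.41 and 11.58. Both HI groups overlapped Sham, and their upper samples reached the lowest LPS samples. Soat1 rose by 0.18 in LPS/HI against Sham (adjusted p = 0.0367), where 8.77% of all genes were called, and the call was lost without LPS/HI replicate 2 (0.19, adjusted p = 0.0590). It was also lost when LPS/HI replicate 1 or 3 or Sham replicate 2, 4, 5 or 6 was left out, with adjusted p between 0.0573 and 0.0897 over these 7 fits. The call did not hold either by the exact Wilcoxon test (adjusted p = 0.0612), with replicate number as a block or with library medians centred. The difference of NaCl/HI from Sham was 0.17 (95% interval 0.06 to 0.28, adjusted p = 0.174). LPS/HI differed from LPS by -0.16 (adjusted p = 0.147), with 6 of 6 LPS/HI samples under the LPS mean, and without LPS/HI replicate 2 by -0.15 (adjusted p = 0.259).

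Soat1 was also the 1 gene of the 10 called in the interaction of LPS with HI, where 1.08% of all genes were called. The LPS effect was 0.34 without HI and 0.01 with HI (LPS/HI against NaCl/HI), a difference of -0.33 (SE 0.0772, adjusted p = 0.0431). This call was near the threshold and was lost in 18 of 23 fits that left out 1 library, in which the difference stayed between -0.37 and -0.31 and the adjusted p reached 0.0913. It held without replicate 1 of Sham, replicate 3 of LPS, replicate 4 of NaCl/HI, or replicate 1 or 3 of LPS/HI. The call was also lost without the variance trend, with replicate number as a block, after quantile normalization and at added fold thresholds. The difference was -0.28 within libraries 1 to 12 and -0.39 within libraries 13 to 23. Without LPS/HI replicate 2 it was -0.32 (adjusted p = 0.0798). The 2 LPS effects differ in more than HI. Without HI, LPS was set against Sham with no injection listed, in whole brains of 1 pup. With HI, LPS was set against saline, in pooled hemispheres of 2 pups. The interaction with HI cannot be told apart from these differences.

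Plin2, the droplet coat protein, rose after LPS and HI together. Its values in Sham were 11.21, 11.49 and 11.61 (lowest, median and highest). Those in LPS/HI were 11.74, 11.95 and 12.19. The lowest LPS/HI sample lay above the highest Sham sample, and 6.37% of all genes had groups that did not overlap in this comparison. The rise was 0.50 log2 units (SE 0.102, adjusted p = 0.00643), in a comparison with 5.3% of all genes called as higher and 3.48% as lower. Without LPS/HI replicate 2 it was 0.51 (adjusted p = 0.0151), and within libraries 1 to 12 and 13 to 23 it was 0.43 and 0.58. The call held under every alternative other than added fold thresholds.

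The other groups placed Plin2 in between. The 5 LPS samples were at 11.72, 11.78, 11.81, 11.62 and 11.39. The NaCl/HI samples were at 11.46, 11.89 and 12.09, given as lowest, median and highest. Both groups overlapped Sham and LPS/HI. The difference from Sham was 0.22 in LPS (adjusted p = 0.163) and 0.42 in NaCl/HI (95% interval 0.21 to 0.63, adjusted p = 0.117), and neither passed. The 2 HI groups differed by 0.09 (95% interval -0.13 to 0.30, adjusted p = 0.806), and by 0.09 (adjusted p = 0.867) without LPS/HI replicate 2.

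Hilpda, the inhibitor of the droplet lipase, passed in no pair of groups. Its values ran from 8.60 to 8.92 in Sham, 8.55 to 8.79 in LPS, 8.61 to 9.01 in NaCl/HI and 8.62 to 9.11 in LPS/HI, and every pair of groups overlapped. The difference from Sham was 0.06 in NaCl/HI (95% interval -0.11 to 0.24) and 0.13 in LPS/HI (95% interval -0.04 to 0.30). LPS/HI against LPS gave 0.23 (adjusted p = 0.177), with 5 of 6 LPS/HI samples above the LPS mean. These LPS/HI differences were 0.12 from Sham (adjusted p = 0.439) and 0.23 from LPS (adjusted p = 0.284) when LPS/HI replicate 2 was left out.

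Mylip encodes the ubiquitin ligase IDOL, a liver X receptor target, and was lower in microglia after LPS. The Sham samples were at 10.95, 11.01 and 11.15 (lowest, median and highest). The LPS samples were at 10.78, 10.81, 11.01, 10.75 and 10.84. LPS replicate 3 overlapped Sham and the other 4 LPS samples lay below every Sham sample. Mylip fell by 0.19 log2 units in LPS against Sham (SE 0.0453, adjusted p = 0.00575), or by the signed differences -0.16 within libraries 1 to 12 and -0.23 within libraries 13 to 23. The call was lost when only these 2 groups were fitted (adjusted p = 0.053) and in the exact Wilcoxon test (adjusted p = 0.101).

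With HI, Mylip was also lower where LPS had been given, without passing the limma test. The NaCl/HI samples were at 10.99, 11.04 and 11.10 (lowest, median and highest) and did not differ from Sham beyond their spread (0.02, 95% interval -0.07 to 0.11). The LPS/HI samples were at 10.87, 10.92 and 10.98. All 6 LPS/HI samples lay below the lowest NaCl/HI sample, where 1.33% of all genes had groups that did not overlap, and the difference was -0.12 (adjusted p = 0.268). Leaving out LPS/HI replicate 2, the difference was -0.12 (adjusted p = 0.453). Against Sham the LPS/HI difference was -0.11 (adjusted p = 0.119 by limma and 0.0440 by the exact Wilcoxon test), and -0.11 without LPS/HI replicate 2 (limma adjusted p = 0.178). The interaction without that library was 0.07 (adjusted p = 0.720). With all samples the interaction was 0.07 (95% interval -0.06 to 0.20, adjusted p = 0.660), so the LPS effects with and without HI were not shown to differ.

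Nr1h3, which encodes the oxysterol receptor LXRα, had a higher mean in all 3 treated groups and passed in none. The Sham samples were at 6.40, 6.54 and 6.80 (lowest, median and highest). The LPS samples were at 7.09, 6.96, 7.02, 6.67 and 6.74. LPS overlapped Sham by its 2 lowest samples. The NaCl/HI samples were at 7.06, 7.29, 7.45, 6.52, 6.81 and 6.67 for replicates 1 to 6, so that the lowest fell within Sham and the highest above every other library. The LPS/HI samples were at 6.83, 6.96 and 7.06 and all lay above the highest Sham sample, in a pair where 6.37% of all genes had groups that did not overlap. The difference from Sham was 0.33 in LPS (adjusted p = 0.0862), 0.40 in NaCl/HI (adjusted p = 0.181) and 0.38 in LPS/HI (adjusted p = 0.0645). Without LPS/HI replicate 2 the last of these was 0.40 (adjusted p = 0.0874), and the exact Wilcoxon test gave an adjusted p of 0.0340 with all samples.

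Abca1, the transporter that loads cholesterol onto lipid-poor apolipoproteins, differed between the 2 single treatments, which also differ in tissue and pooling. The Sham samples were at 14.19, 14.32 and 14.49 (lowest, median and highest), and the LPS samples at 14.24, 14.44, 14.46, 14.20 and 14.33. The NaCl/HI samples were at 14.47, 14.53 and 14.67. All 6 NaCl/HI samples lay above the highest LPS sample, a pattern of no overlap that 7.31% of all genes had in this pair of groups. Abca1 was lower in LPS than in NaCl/HI, with a difference of -0.22 log2 units (adjusted p = 0.0353), where 8.98% of all genes were called, 5.32% as higher and 3.66% as lower. The call was lost in 5 of 23 fits without 1 library and when only these 2 groups were fitted (limma adjusted p = 0.177). The LPS/HI samples, at 14.34 to 14.57, overlapped all 3 other groups. Against Sham, Abca1 differed by 0.22 in NaCl/HI (95% interval 0.10 to 0.35, adjusted p = 0.149) and by 0.0035 in LPS (95% interval -0.13 to 0.14).

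Abcg1, which exports cholesterol to mature lipoprotein particles, followed the same order of single treatments. The Sham samples were at 12.58, 12.67 and 12.84 (lowest, median and highest). The LPS samples were at 12.66, 12.83, 12.85, 12.47 and 12.58. The NaCl/HI samples were at 12.71, 12.96 and 13.04. NaCl/HI replicate 4 was the lowest of its group and the only NaCl/HI sample within the range of Sham and LPS. Abcg1 was lower in LPS than in NaCl/HI, with a difference of -0.25 (SE 0.0689, adjusted p = 0.0238). This call was lost in 4 of 23 fits without 1 library and with only these 2 groups fitted (limma adjusted p = 0.160). The difference between NaCl/HI and Sham was 0.25 (adjusted p = 0.134). LPS/HI, at 12.75 to 12.83, was -0.14 from NaCl/HI (adjusted p = 0.452, and -0.14 with an adjusted p of 0.643 without LPS/HI replicate 2).

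Apoe and Pltp, which act outside the cell, passed in no pair. Apoe, the main lipoprotein component of the brain, ran from 15.61 to 15.85 in Sham, 15.68 to 16.04 in LPS, 15.67 to 16.01 in NaCl/HI and 15.58 to 15.98 in LPS/HI, where replicate 1 alone set the lower end. Its largest difference was 0.15 in NaCl/HI against Sham (95% interval -0.01 to 0.32, adjusted p = 0.374). Pltp, which encodes the phospholipid transfer protein, ran from 12.04 to 12.52 in Sham, 11.86 to 12.40 in LPS, 12.05 to 12.69 in NaCl/HI and 12.25 to 12.52 in LPS/HI. Its largest difference was 0.24 in LPS/HI against LPS (95% interval 0.01 to 0.47, adjusted p = 0.307), which was 0.24 (adjusted p = 0.397) without LPS/HI replicate 2.

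Fabp4 had the widest range of group means of the 10 genes, wider than in 99.8% of all genes. The Sham samples were at 4.16, 4.80 and 5.40 (lowest, median and highest). The LPS samples were at 4.64, 4.63, 4.95, 4.39 and 3.71. The NaCl/HI samples were at 5.94, 6.55, 6.91, 4.59, 5.21 and 4.81 for replicates 1 to 6. Replicates 1 to 3, which are among libraries 1 to 12, were all above the highest sample of every other group, and replicates 4 to 6, among libraries 13 to 23, lay within the range of Sham. Fabp4 was lower in LPS than in NaCl/HI, with a difference of -1.21 log2 units (SE 0.337, adjusted p = 0.0281), and it was the 1 gene of the 10 that also passed a fold change of 2, as 0.0591% of all genes did. Within libraries 1 to 12 this difference was -1.73, and within libraries 13 to 23 it was -0.82. The call was lost in 6 of 23 fits without 1 library and with only these 2 groups fitted (limma adjusted p = 0.148).

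The LPS/HI samples were at 5.05, 5.31 and 5.68 and lay above all 5 LPS samples. The difference of LPS/HI from LPS was 0.90 (adjusted p = 0.176) and did not pass, with 0.96 (adjusted p = 0.223) without LPS/HI replicate 2. Here 4.17% of all genes had groups that did not overlap. Against Sham, NaCl/HI differed by 0.91 (adjusted p = 0.213), which was 1.71 within libraries 1 to 12 and 0.10 within libraries 13 to 23. Nr1h3 split the same way, with a difference of 0.68 in the first and 0.13 in the second set. The labels give the library numbers without saying what they stand for.

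The split went along with markers of monocytes and of border-associated macrophages, in opposite directions. Of the marker lists, these were the ones whose means did not overlap between NaCl/HI replicates 1 to 3 and 4 to 6. The microglial, astrocyte, endothelial, neutrophil, oligodendrocyte and neuronal lists overlapped. The mean of 8 monocyte markers was 8.72 to 9.08 in NaCl/HI replicates 1 to 3 and 8.24 to 8.41 in replicates 4 to 6, against at most 8.55 in Sham, 8.36 to 8.72 in LPS and 8.41 to 9.20 in LPS/HI. The mean of 10 markers of border-associated macrophages was lower in replicates 1 to 3, at 10.78 to 11.09, than in replicates 4 to 6, at 11.15 to 11.25, with Sham at 10.82 to 11.51. None of the 8 monocyte markers was at 0, and 0 of the 8 passed the limma test in NaCl/HI against Sham, with 2 at an unadjusted p under 0.05. By their means 6 of the 8 were higher than in Sham and 2, Plac8 and Ifitm6, were lower. In bulk samples, more cells of a type and more RNA per cell cannot be told apart, and the part of either cell type in the Fabp4 and Nr1h3 values was not tested.

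**Figure D2:**
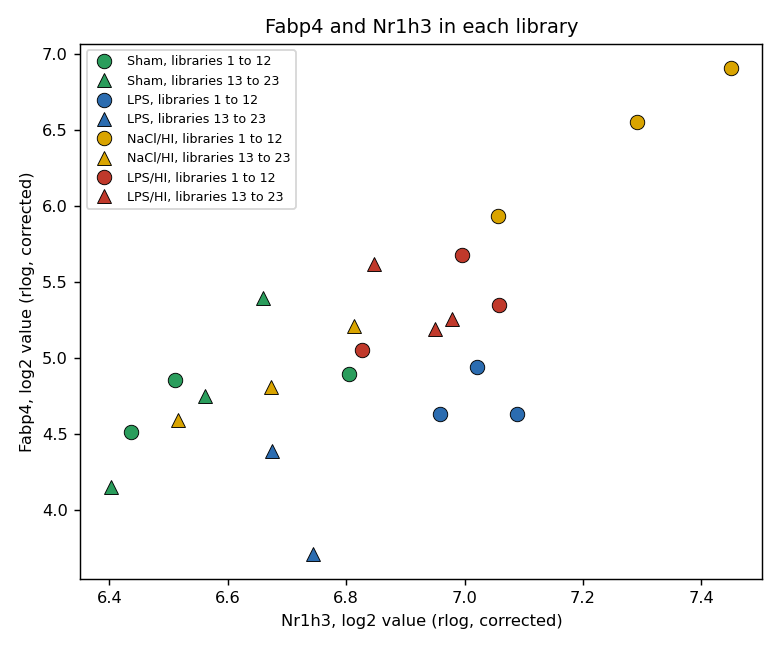
Fabp4 against Nr1h3 in each of the 23 libraries, both as log2 values (rlog, corrected by the authors), with colours for the 4 groups, circles for libraries 1 to 12 and triangles for libraries 13 to 23. The 3 NaCl/HI circles hold the 3 highest Fabp4 values, and the 3 NaCl/HI triangles lie among or next to the Sham libraries.

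Read by comparison, LPS alone called 2 of the 10 genes against Sham, Soat1 as higher and Mylip as lower, and 5 of 10 means were higher. The background here was 17.8% of all genes. In the same comparison 6 of 11 microglial markers and 6 of 10 neuronal markers passed as lower and 3 of 10 astrocyte markers passed as higher. By their means alone, 9 of 11 microglial and 10 of 10 neuronal markers were lower and 10 of 10 astrocyte markers higher. Of 10 markers of border-associated macrophages 3 passed as lower and 1 as higher, with a median difference of -0.40 over the 10, and of 9 endothelial markers 4 passed as lower and 1 as higher. Of 12 neutrophil markers 2 passed as lower and 1 as higher, and of 8 monocyte markers 1 passed as higher. Their part in the Soat1 and Mylip differences was not tested.

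NaCl/HI against Sham called 0 of the 10 genes by limma, which called 0.00985% of all genes. The exact Wilcoxon test called 0 of all 20301 genes here and in the 3 other pairs among LPS, NaCl/HI and LPS/HI, so its count of 0 says nothing of the 10 genes in these 4 pairs. The 10 means were all higher in NaCl/HI, as were 46.4% of those of all genes, and the median difference was 0.20 over the 10 genes against -0.01 over all genes. At an unadjusted p under 0.05 there were 6 genes (Abca1, Abcg1, Plin2, Soat1, Nr1h3 and Fabp4), where 14.8% of all genes had such a p. None of the 10 had groups without overlap, as 1.01% of all genes did. NaCl/HI replicate 4 decided this count, because without it 4 genes passed, in a fit that called 2.74% of all genes: Abcg1 (0.29, adjusted p = 0.0203), Plin2 (0.50, 0.0111), Soat1 (0.21, 0.0276) and Nr1h3 (0.49, 0.0332).

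LPS/HI against Sham called 2 of the 10, Plin2 and Soat1, both higher, where 8.77% of all genes were called, 5.3% as higher, and 9 of 10 means were higher, with Mylip the exception. Without LPS/HI replicate 2 the call on Plin2 was left, beside 4.16% of all genes. The exact Wilcoxon test called 3, namely Plin2, Nr1h3 and Mylip, and 9.84% of all genes. Of 12 neutrophil markers, 4 passed as higher in the same comparison and 0 as lower, and the mean of the 12 was 6.66 to 7.55 in LPS/HI against 6.48 to 6.91 in Sham, so that the groups overlapped. The monocyte markers passed as higher in 2 of 8, the astrocyte markers as higher in 2 of 10, the microglial markers as lower in 2 of 11 and the neuronal markers as lower in 3 of 10. The neutrophil granule gene Elane was near 0 in both groups, at 0.35 in LPS/HI and 0.32 in Sham, while S100a8 was at 9.93 and 8.82. The mean was higher in LPS/HI for 10 of the 12, among them Mmp8 (7.91 and 6.87), Mmp9 (6.71 and 5.96) and Lcn2 (8.16 and 7.71), and lower for Ngp (6.50 and 7.08) and Ltf (4.73 and 4.89). The part of these cell types in the Plin2 and Soat1 differences was not tested.

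LPS/HI against LPS called 0 of the 10 genes by limma, where 1.94% of all genes were called, 1.22% as higher and 0.719% as lower. There were 6 genes with an unadjusted p under 0.05, beside 15.5% of all genes, of which Abca1, Plin2, Pltp, Fabp4 and Hilpda had the higher mean in LPS/HI and Soat1 the lower. LPS/HI against NaCl/HI, the comparison of HI with and without LPS, likewise called 0 of 10 by limma, beside 0.202% of all genes. The unadjusted p was under 0.05 for 2 genes, Abcg1 and Mylip, both lower in LPS/HI, beside 10.6% of all genes. Without LPS/HI replicate 2 both comparisons again called 0, beside 0.591% and 0.00493% of all genes. In LPS/HI against LPS 2 of 9 endothelial markers and 1 of 12 neutrophil markers passed as higher, with median differences of 0.25 and 0.58 over each list, and 1 of 8 monocyte markers passed as lower. The means were higher in LPS/HI for 9 of 9 endothelial and 11 of 12 neutrophil markers. Of the microglial and neuronal markers 1 of 11 and 1 of 10 passed as higher. In LPS/HI against NaCl/HI 1 of 12 neutrophil markers passed as higher.

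LPS against NaCl/HI called 4 of the 10 genes, Abca1, Abcg1, Mylip and Fabp4, all lower in LPS, where 8.98% of all genes were called, 5.32% as higher and 3.66% as lower, and 9 of 10 means were lower in LPS. Without NaCl/HI replicate 1, LPS replicate 4 or LPS replicate 5 the count was 1, and without NaCl/HI replicate 2 it was 2. Fits without 1 of these 4 libraries called 5.73% to 7.03% of all genes, and Mylip kept its call in each. When only the 2 groups compared were fitted 2.43% of all genes were called and all 4 calls were lost, with an adjusted p of 0.102 for Mylip, 0.148 for Fabp4, 0.160 for Abcg1 and 0.177 for Abca1. Abca1 was lost when LPS replicate 1, 4 or 5 or NaCl/HI replicate 1 or 2 was left out (adjusted p up to 0.109). Abcg1 was lost without LPS replicate 4 or 5 and without NaCl/HI replicate 1 or 6 (up to 0.0843). Fabp4 was lost without LPS replicate 2, 4 or 5 and without any of NaCl/HI replicates 1 to 3 (up to 0.0836). This pair shares its samples with the comparisons against Sham and is no separate evidence, and it sets whole brains against hemispheres. In the same pair 3 of 10 astrocyte markers passed as higher in LPS, while 3 of 11 microglial and 2 of 10 neuronal markers passed as lower and all 10 neuronal means were lower. Of the border-associated macrophage markers 2 of 10 passed as lower and 1 as higher, and of the monocyte markers 1 of 8 passed in each direction. The part of these cell types in the 4 calls was not tested.

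**Figure D3:**
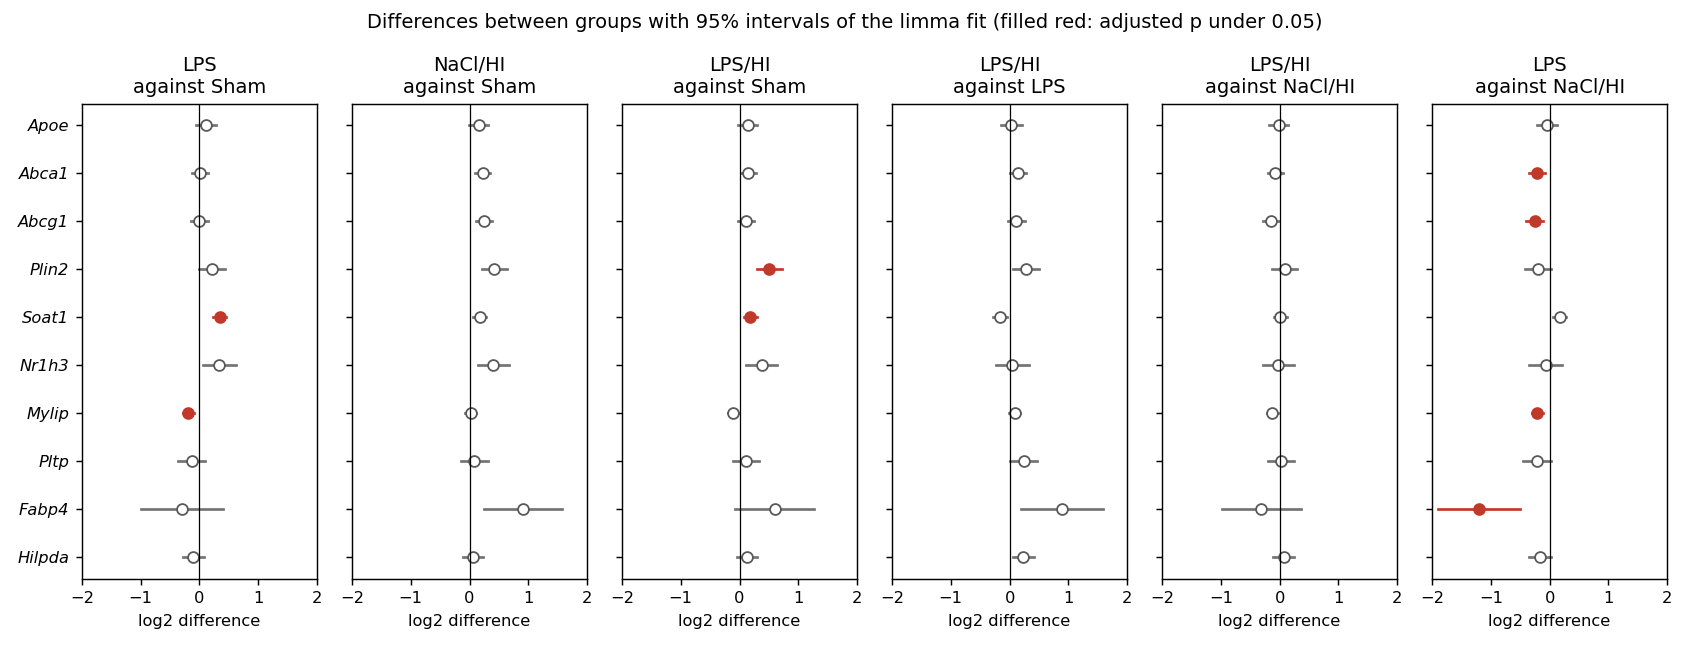
Log2 difference of each of the 10 genes in each of the 6 pairs of groups, as points with 95% intervals of the limma fit, filled red where the adjusted p over all genes was under 0.05. There are 2 filled points in LPS against Sham, 2 in LPS/HI against Sham and 4 in LPS against NaCl/HI, and Fabp4 has the widest intervals.

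The rest of the pathway was read from 94 listed genes of sterol sensing, efflux and lipoproteins, droplets, and lipid uptake and binding, of which 91 had values. LPS against Sham called 8 of the 91 (8.79%), 3 higher and 5 lower, a smaller share than the 17.8% of all genes called. Dbi, the acyl-CoA binding protein, rose by 0.49 (adjusted p = 2.39e-05), and all 5 LPS samples lay above Sham. Ch25h, which makes the oxysterol 25-hydroxycholesterol, rose by 0.40 (adjusted p = 0.0149) and the transporter Abca7 by 0.17 (adjusted p = 0.0313). Lpl, the lipoprotein lipase, fell by 0.54 (adjusted p = 0.0426), the lipoprotein receptor Lrp1 by 0.40 (adjusted p = 0.00157) and the monoglyceride lipase Mgll by 0.37 (adjusted p = 3.11e-04). All 3 had LPS samples that lay wholly below Sham, in a pair where 13.9% of all genes had groups that did not overlap. The count was 4 without LPS replicate 2, beside 11.8% of all genes. The part in these differences of the cell-type markers that moved in LPS against Sham, such as microglial, neuronal and astrocyte markers, was not tested.

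Fabp3, another fatty acid carrier, was the 1 pathway gene called in NaCl/HI against Sham, where it rose by 0.52 (adjusted p = 0.0350) and 0.00985% of all genes were called. The lowest NaCl/HI sample, 6.90 to 7.38 being the range, lay above the highest Sham sample, with Sham at 6.59 to 6.67, where 1.01% of all genes had groups that did not overlap. The call was lost in 17 of the 23 fits without 1 library. It was also lost in 5 of 10 other alternatives, not counting the added fold thresholds of 1.5 and 2, at which it was lost as well. With the replicate block (adjusted p = 0.0844) 1 of all 20301 genes was called, and 0 of them were without the variance trend (0.0739), with robust variances (0.0504), with only the compared groups (0.288) and by the exact Wilcoxon test (0.213). Without NaCl/HI replicate 4, 8 of the 91 passed, beside 2.74% of all genes in that fit. LPS/HI against Sham called 5 of the 91 (5.49%), 4 higher and 1 lower, beside 8.77% of all genes. Dgat2, which makes triglycerides for droplets, rose by 0.67 (adjusted p = 0.0398), the lipid carrier Apod by 0.45 (adjusted p = 0.00789) and Ch25h by 0.42 (adjusted p = 0.0199). The part in these rises of the neutrophil, monocyte, astrocyte, microglial and neuronal markers that moved in LPS/HI against Sham was not tested. Leaving out LPS/HI replicate 2 gave 4 genes, beside 4.16% of all genes, with Dgat2 lost (0.70, adjusted p = 0.0638). Leaving out LPS/HI replicate 3, Sham replicate 5 or Sham replicate 6 gave 3, beside 4.95% to 5.28% of all genes.

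LPS/HI against LPS called 5 of the 91, 4 higher and 1 lower, beside 1.94% of all genes. Lpl was 0.80 higher in LPS/HI (adjusted p = 0.0277), Apod 0.51 (adjusted p = 0.0120) and Fabp3 0.43 (adjusted p = 0.0156). The part in these differences of the endothelial, neutrophil and monocyte markers that moved in the same pair was not tested. Lpl did not pass without LPS/HI replicate 2 (0.81, adjusted p = 0.0590), while Apod and Fabp3 did. No gene was called when LPS replicate 4 was left out, beside 0.399% of all genes. The count was 2 when either of LPS replicates 2 and 5 or any of LPS/HI replicates 2, 4 and 5 was left out, and 3 when the first replicate of LPS or of LPS/HI was, in fits that called 0.591% to 1.49% of all genes. LPS/HI against NaCl/HI called 0 of the 91 by limma, beside 0.202% of all genes. There were 16 of the 91 at an unadjusted p under 0.05, beside 10.6% of all genes.

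LPS against NaCl/HI called 14 of the 91 (15.4%), 4 higher and 10 lower in LPS, beside 8.98% of all genes. The difference was -1.23 for Lpl (adjusted p = 2.07e-04), -0.73 for Fabp5, another fatty acid carrier (adjusted p = 0.0365), and -0.72 for Fabp3 (adjusted p = 3.62e-05). Dbi was 0.44 higher (adjusted p = 2.12e-04) and the sterol carrier Stard4 0.19 higher (adjusted p = 0.0452). The mean of Lpl was 10.32 ± 0.33 (SD, n = 5) for the LPS samples, 11.55 ± 0.42 (SD, n = 6) for NaCl/HI and 10.86 ± 0.18 (SD, n = 6) for Sham. The limma count was 9 without LPS replicate 1, LPS replicate 5 or NaCl/HI replicate 3, beside 6.69% to 7.97% of all genes. The part of the cell-type markers that moved in LPS against NaCl/HI was not tested for these genes.

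**Figure D4:**
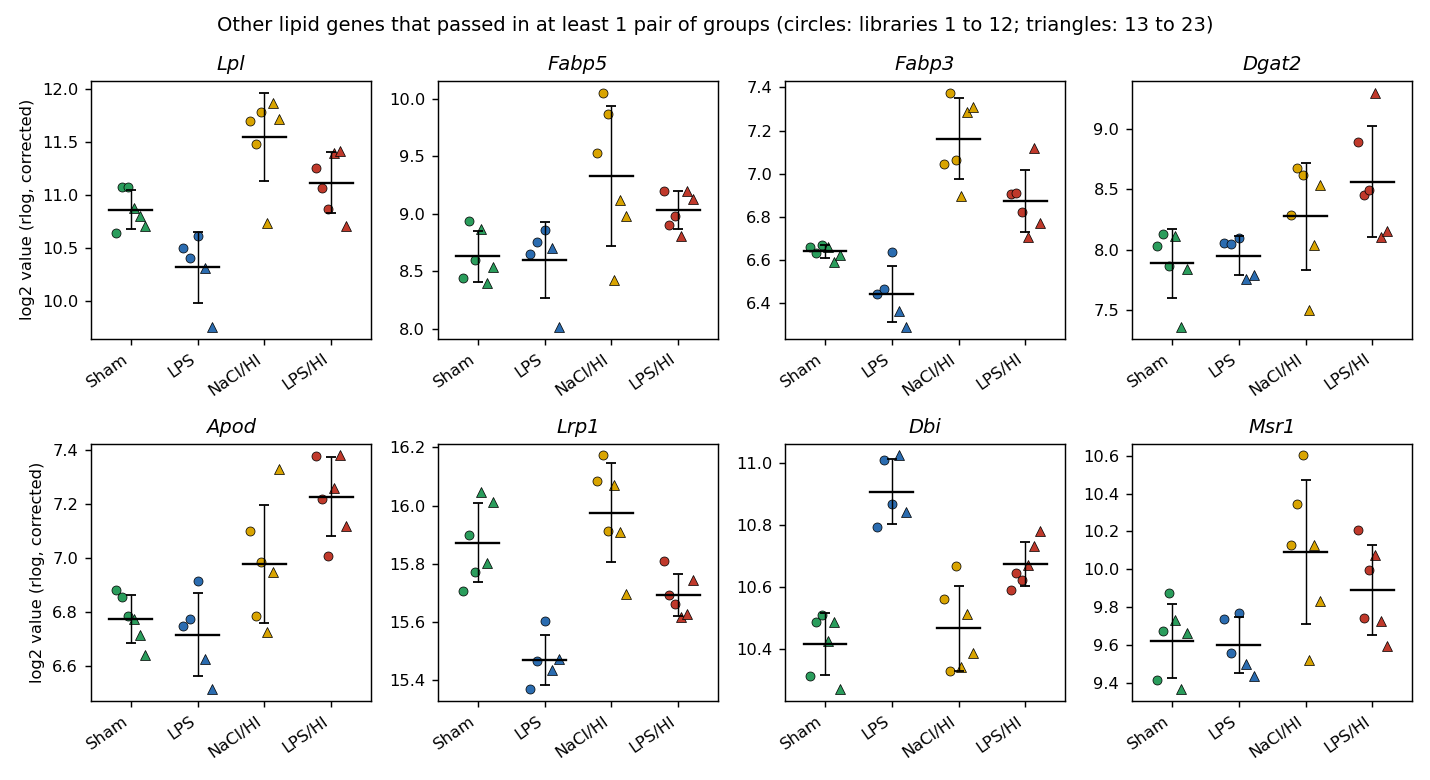
Log2 value (rlog, corrected by the authors) by library and group for the 8 other pathway genes with the widest range of group means among the 19 called in at least 1 pair of groups. Lines are group means, bars ± 1 SD, circles libraries 1 to 12 and triangles libraries 13 to 23; Dbi is highest and Lpl and Lrp1 are lowest in LPS.

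Within groups, some of the 10 genes varied together from library to library. Pearson's r over the 23 libraries, after taking each library's value from its group mean, was 0.89 for Nr1h3 with Fabp4, 0.71 for Plin2 with Fabp4 and 0.66 for Apoe with Abcg1, and lowest, at -0.49, for Abca1 with Hilpda. The libraries share the 3 removed variables and unknown depths, so these are descriptions.

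Of all genes, those most like Plin2 in this measure were Itgax, which encodes the integrin CD11c (r = 0.94), and Lpl (r = 0.89). Those most like Fabp4 were Prdx5, a peroxiredoxin (r = 0.95), and G0s2, an inhibitor of ATGL (r = 0.94). For Abca1 they were Marchf10 (r = 0.89) and RGD1306271 (r = 0.83), and for Abcg1 Rab7b (r = 0.84) and Dkkl1 (r = 0.84). For Soat1 they were AABR07021573.2 and RGD1561318 (r = 0.81 for both), and for Mylip Slc13a2 and Or7a38c (r = 0.79 for both). Dkkl1 and Slc13a2 had group means under 1 log2 unit, at the low end of the table, whereas Itgax was at 9.71 in Sham and 10.55 in LPS/HI.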

How the data were processed

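The 23 RNA-sequencing libraries were grouped by their titles. As the study's methods and the submitters' processing notes give it, reads were quantified with kallisto 0.48.0 on mRatBN7.2, imported into DESeq2, transformed by rlog and stripped of 3 surrogate variables by limma and sva. What the authors deposited is on the log2 scale. No counts entered the work, so library depth and the precision it allows for low genes are not known.

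R 4.3.3 with limma 3.58.1 and Python 3.11.15 were used. All 23 samples entered 1 limma fit with a variance trend and 16 residual degrees of freedom (19 less the 3 variables), with adjustment over 20301 genes in each of the 6 pairs of groups and the interaction. The fit was tested on simulated data with independent noise and planted differences several times the spread. That test does not show how well smaller differences are found, nor the effect of variables estimated from the data. The 10 genes and all lists were chosen with earlier results of these data known, and no list was tested as a set. The text names the 10 genes, up to 3 rises and 3 falls of the other pathway genes in a pair, and for each called gene the 2 genes with the highest r. Itgax levels and markers are given beyond that rule. Alternatives were other degrees of freedom, variance settings, samples, blocks, a filter on the lowest 25% of genes, scalings, exact Wilcoxon tests, fold thresholds of 1.5 and 2, and leaving out each library. The table holds 209 genes whose values are identical to those of some other gene, and none is among the 10. Promoters were taken from RefSeq (GRCr8). The values of 1 pathway gene are not reported here by name.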

Additional observations from a re-analysis of the deposited data

Results flagged for a closer look

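Apoe in LPS/HI replicate 1, at 15.58, lay far below the other 5 samples of its group, at 15.86 to 15.98. Abcg1 in NaCl/HI replicate 4, at 12.71, lay far below its group's other samples, at 12.92 to 13.04. Dixon's test was applied to 40 groups, and chance alone marks about 1 in 20. The LPS effect on Soat1 differed with and without HI by -0.33 (adjusted p = 0.0431 for the interaction). No cause was tested for any of these results.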

How the results depend on the processing

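The deposited table holds no counts, so depth is unknown and what it limits could not be measured. Array weights were not used, because their estimate did not converge (a weight of 216 for LPS/HI replicate 2 and 0.319 to 1.69 for the others). The replicate numbers did not pair the samples (33 same-numbered pairs, correlation of deviations from -0.475 to 0.470, median -0.0304).

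Of the 10 genes, LPS against Sham called 1 when only the compared groups were fitted and 1 by the Wilcoxon test, and 0 at either fold threshold. NaCl/HI against Sham called 1 with 19 degrees of freedom and 0 to 4 when 1 library was left out. LPS/HI against Sham called 1 with the replicate block, 1 with library medians centred, 0 at either fold threshold, and 1 to 3 with 1 library left out. LPS against NaCl/HI called 0 with only the compared groups, 0 by the Wilcoxon test, 1 at either fold threshold, and 1 to 4 with 1 library left out. The interaction called 0 without the variance trend, with the replicate block, after quantile normalization and at either fold threshold, and 0 to 1 with 1 library left out. The causes were not tested.

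Of the 91 pathway genes, LPS against Sham called 0 at either fold threshold, and 4 to 11 with 1 library left out. NaCl/HI against Sham called 3 with 19 degrees of freedom, 0 without the trend, with robust variances, with only the compared groups, with the replicate block, by the Wilcoxon test and at either fold threshold, and 0 to 8 with 1 library left out. LPS/HI against Sham called 12 with 19 degrees of freedom, 3 with the replicate block, 8 after quantile normalization, 8 by the Wilcoxon test, 0 and 1 at folds of 2 and 1.5, and 3 to 7 with 1 library left out. LPS/HI against LPS called 0 with only the compared groups, 0 with the replicate block, 0 by the Wilcoxon test, 0 and 1 at the folds of 2 and 1.5, and 0 to 6 with 1 library left out. LPS/HI against NaCl/HI called 2 with 19 degrees of freedom. LPS against NaCl/HI called 7 with only the compared groups, 0 by the Wilcoxon test, 1 and 3 at the folds of 2 and 1.5, and 9 to 14 with 1 library left out.

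The share of all genes called moved with these counts. By the Wilcoxon test it was 19.1% in LPS against Sham, 9.84% in LPS/HI against Sham and 0 in the 4 other pairs. With only the compared groups it was 11.5% in LPS against Sham, 2.43% in LPS against NaCl/HI, and 0 in NaCl/HI against Sham and LPS/HI against LPS. The replicate block gave 3.7% in LPS/HI against Sham, 0.438% in LPS/HI against LPS, 0.00493% in NaCl/HI against Sham and 0.00985% in the interaction, which was at 0.699% without the trend and 0.911% after quantile normalization. With 19 degrees of freedom it was 0.729% in NaCl/HI against Sham, 15.2% in LPS/HI against Sham and 1.2% in LPS/HI against NaCl/HI. In LPS/HI against Sham it was 8.52% with medians centred and 8.46% after quantile normalization. Fold thresholds left at most 0.965% in any comparison.

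Reversed signs occurred in differences that passed neither in the fit reported nor under the reversing setting. Apoe in LPS/HI against NaCl/HI was 0.0450 after quantile normalization. Abca1 in LPS against Sham was -0.00186 with the library block. Abcg1 in LPS against Sham was 0.00916 with the replicate block and 0.0110 with medians centred. Soat1 in LPS/HI against NaCl/HI was -0.00704 with medians centred. The Fabp4 interaction was 0.0595 with the replicate block and 0.0466 with the library block. With 1 library left out, differences ran from -0.0108 to 0.0917 for Apoe in LPS/HI against LPS, -0.0597 to 0.0454 for Apoe in LPS/HI against NaCl/HI, -0.0278 to 0.0374 for Abca1 in LPS against Sham, -0.0470 to 0.0481 for Abcg1 in LPS against Sham, -0.0304 to 0.0340 for Soat1 in LPS/HI against NaCl/HI, -0.0104 to 0.0931 for Nr1h3 in LPS/HI against LPS, -0.114 to 0.0729 for Nr1h3 in LPS/HI against NaCl/HI, -0.159 to 0.0275 for Nr1h3 in LPS against NaCl/HI, -0.0388 to 0.0893 for Pltp in LPS/HI against NaCl/HI, and -0.225 to 0.238 for the Fabp4 interaction.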
